A study of Drosophila melanogaster with 6 samples.

Results

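Chromatin regulators decide which genes of a cell can be read, and 10 of their genes were followed here in m6A-CLIP peak lists from heads of adult fruit flies (Drosophila melanogaster). The 10 genes were given by name, in a choice made with earlier results of these data known: trx, ash1, brm, osa, kis, nej, Nipped-B, Pc, E(z) and Su(z)12. Peaks were assigned by their midpoints to the RefSeq spans of these genes, introns included. This found 54 of 28206 peaks, in 8 of the 10 genes, among 13922 protein-coding genes in all. None of the 54 peaks lay in a second protein-coding span.

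N6-methyladenosine (m6A) is a methyl mark that a nuclear writer complex places on adenosines of mRNA. In m6A-CLIP, fragmented RNA is crosslinked by ultraviolet light to an antibody against the mark, and the bound fragments are sequenced. In fly mRNA the mark has been mapped mostly to 5′ untranslated regions. Trithorax group proteins keep genes active through cell divisions, and Polycomb group proteins keep them silent. In neurons, these proteins are also known for roles in the fate, wiring and memory of cells.

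The 6 libraries belong to a single biological group: heads of male and female w1118cs flies on standard diet at 25 °C, with about 800 heads and 20 µg of poly(A)-selected RNA per replicate. The age of the flies is not given in the labels. In 3 libraries the RNA was enriched with the antibody, the other 3 are input, and each CLIP library shares a peak list with the input library of the same number. These lists are called replicates 1, 2 and 3. No condition, genotype or control antibody is compared. CLIP was not tested against input, because peaks were selected on their CLIP reads, and the values below are descriptions with the spread over the 3 lists.

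The lists held 14329, 7232 and 6645 peaks. Peaks consist of bins of 50 bp. The height of a peak is its mean CLIP reads per bin, without any scaling for sequencing depth, and the lowest height was 7, 25 and 7 reads. Heights are therefore compared within a list only. The ratio of CLIP to input was taken as log2((CLIP + 1)/(input + 1)) from the reads per bin, and its median over all peaks was 0.17, 1.58 and −0.42. Library depth is unknown, since reads outside peaks are not in the lists. No list was a copy of another: over 644 identical intervals, the chi-square of CLIP reads divided by its degrees of freedom was at least 11.9 for each pair. For input reads, over 373 intervals of 1 bin, it was 23.3 and 25.2 for the pairs with replicate 1 and 2.35 for replicates 2 and 3. The labels name neurons as cell type, but whole heads were used. Of 5 marker genes each, a peak in all 3 lists was found for 3 of neurons, 5 of photoreceptors, 4 of glia, 2 of fat body and 5 of muscle, and elav, a defining neuronal gene, had no peak. The remaining glial marker, moody, has no 50 bp bin outside other protein-coding spans, so it could have no peak of its own.

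The first question was which chromatin regulator genes had peaks, and how repeatably. trx, ash1, osa, kis and nej had a peak in all 3 lists, Nipped-B in 2, Pc and Su(z)12 in 1, and brm and E(z) in none. Thus 8 of the 10 genes had a peak in at least 1 list, against 29.3% of all protein-coding genes, and 5 of 10 had peaks in all 3, against 13.7%. Long spans are called more often, and most of these genes are long. Of the 5 genes with spans of 20 kb or more (trx, osa, kis, nej and Nipped-B), 4 were called in every list, against 64.5% of protein-coding genes of that length. Of the 4 genes with 5 to 20 kb, 1 did, against 26.8%. The only shorter gene, E(z), did not, against 5.64% of genes under 5 kb. The shares are thus near those of genes with like spans. A gene with little mRNA gives few reads, and fewer expressing cells cannot be told apart from less RNA per cell in whole heads. A gene without a peak therefore cannot be called free of m6A.

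The 54 peaks numbered 27, 14 and 13 in replicates 1, 2 and 3, or 0.188%, 0.194% and 0.196% of each list. Of these, 30 overlapped a peak in both other lists on the same strand, 6 in 1 other list and 18 in neither. By replicate, 33.3%, 71.4% and 84.6% of the peaks of these genes recurred in both other lists, against 23.6%, 51.1% and 60.6% of all peaks. Among the 18 peaks without a partner, 16 came from replicate 1, which has the longest list, and had 7 to 10.5 CLIP reads per bin. Each of the 7 genes with at least 2 peaks had all of them on 1 strand, as did 88.5% of the 2674 protein-coding genes with at least 2 peaks in their span alone. The peaks of ash1 were the same bin in each list, and Pc had a single peak. The RefSeq table used gives no strand, so the 5′ end of a span was set by the strand of the peaks: plus at ash1 and Pc and minus at the other 6 genes.

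**Figure D1:**
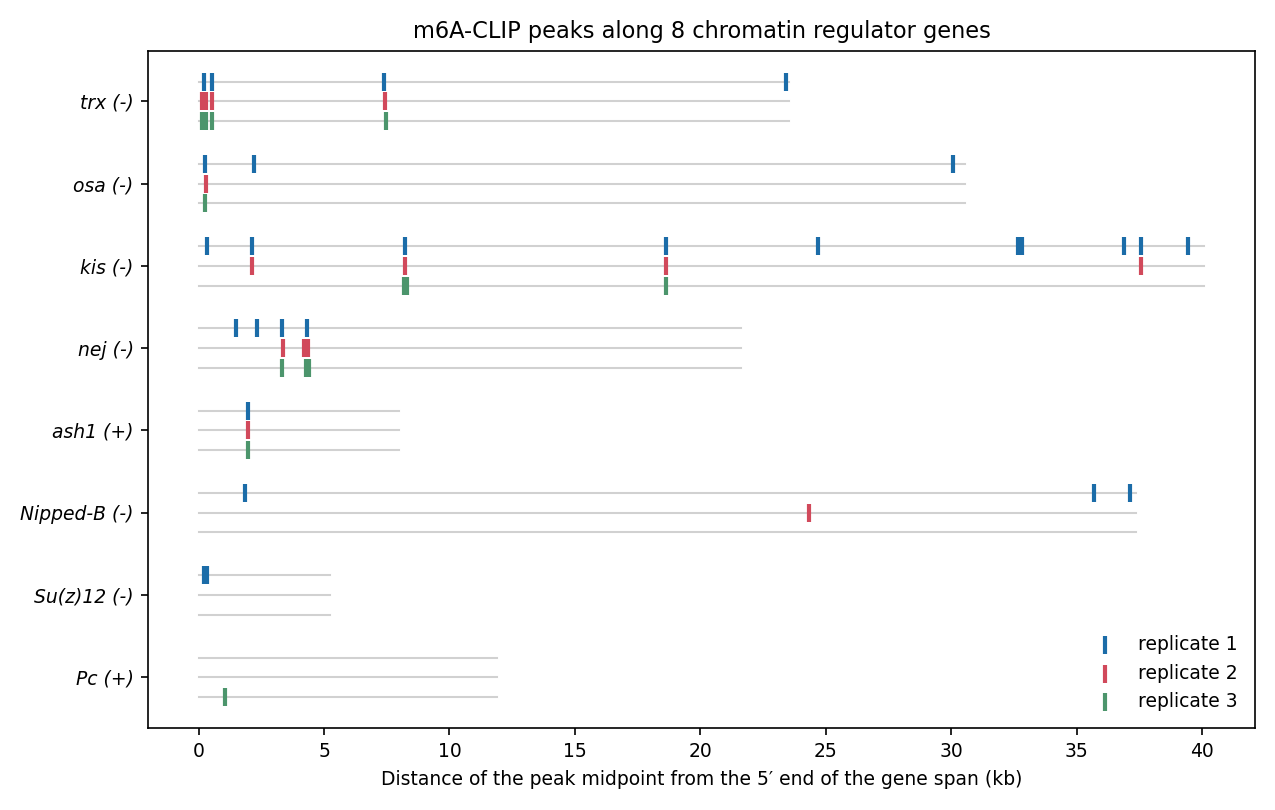
Peaks of the 3 lists along the 8 chromatin regulator genes with a peak. The x axis is the distance of a peak's midpoint from the 5′ end of the gene span in kb, grey lines are the span, tick marks are peaks coloured by replicate, and the sign after each name is the strand of the peaks. Marks that recur in all 3 lists lie close to the 5′ end in osa and, but for the bin 7.43 kb inside the gene, in trx, while most marks near the 3′ end come from replicate 1.

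Of the trithorax group methyltransferases, trx encodes a histone H3 lysine methyltransferase of the MLL type that keeps Hox genes active. Its span on chromosome 3R runs from 14263358 to 14286903 (Release 6, dm6) and held 4 peaks in each list. The strongest shared region lay at 14286301 to 14286450, 0.528 kb from the 5′ end. The peaks covering it had 29.5, 93.3 and 14.7 CLIP reads per bin in replicates 1, 2 and 3, and 5.21, 5.19 and 1.59 input reads. CLIP reads exceeded input reads in each list, and the log2 ratio was 2.94 ± 0.87 (SD, n = 3). Taken minus the list median, the ratio was 2.49 ± 0.46. The SD of the unadjusted ratio also holds the differences between the list medians, here and at the regions below.

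Closer to the 5′ end of trx, replicate 1 had a single peak from 14286551 to 14286800 with 17 CLIP reads per bin against 2.93 input reads. In the same stretch replicate 2 had 2 peaks with 48 and 45.5 reads against 5.66 and 3, and replicate 3 had 2 peaks with 13 and 8 reads against 5 and 7. All 5 peaks had more CLIP than input reads, by least in the last of them. A further shared bin lay inside the gene at 14279451 to 14279500, 7.43 kb from the 5′ end. The peaks covering it had 9, 40 and 11.5 CLIP reads and 4.24, 5 and 2.45 input reads per bin. A peak at the 3′ end, with 7 CLIP and 5 input reads, was called in replicate 1 only.

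The other methyltransferase gene, ash1, whose product methylates histone H3 and counters Polycomb silencing, gave a different picture. Its span on 3L from 19590773 to 19598755 held a single peak in each list, at the same bin from 19592701 to 19592750 on the plus strand. That bin had 35, 48 and 7 CLIP reads against 135, 71 and 46 input reads, so input was higher in every list. Without a pseudocount the log2 ratio was −1.95 (95% exact binomial interval −2.53 to −1.40), −0.56 (−1.12 to −0.02) and −2.72 (−4.11 to −1.56). These intervals cover counting error only, and each lies below the median ratio of its list. In each list the bin had more input reads than at least 86.2% of the 1-bin peaks. No other gene of the RefSeq table lies there. Thus ash1 counts as called in all 3 lists through a bin where input reads were high, and without the peaks of ash1 and of a small RNA inside kis described below, 4 of the 10 genes were called in every list.

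The Brahma complexes slide and evict nucleosomes with the ATPase encoded by brm. No peak lay in the brm span on 3L from 15970082 to 15982869, which overlaps the spans of 4 other protein-coding genes. The gene osa encodes the large DNA-binding subunit that marks the BAP form of the complex. At osa, on 3R from 17687818 to 17718350, the bin at 17718051 to 17718100 was called in all 3 lists, 0.275 kb from the 5′ end. The peaks covering it, 3, 2 and 1 bins wide, had 26.7, 80 and 26 CLIP reads per bin and 4.12, 3 and 7 input reads. Their log2 ratio was 2.84 ± 1.34 (SD, n = 3), or 2.40 ± 0.31 minus the list median. The height of these peaks was at percentile 92.7, 86.0 and 91.6 of their lists. It was also the only position whose heights reached 25 reads in all 3 lists, so with that minimum osa alone remained among the 10 genes. The other 2 osa peaks, 2.22 kb and 30.1 kb from the 5′ end, had 8 CLIP reads each and came from replicate 1.

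The longest span was that of kis, on 2L from 210735 to 250823, which encodes a chromatin remodeller of the CHD family related to human CHD7 and CHD8. It held 10, 4 and 3 peaks. The region called in all lists with the most CLIP over input lay at 242601 to 242650, 8.20 kb from the 5′ end. The peaks covering it had 28, 118 and 23 CLIP reads per bin and 6.32, 5.48 and 5 input reads. Their log2 ratio was 2.73 ± 1.27 (SD, n = 3), or 2.28 ± 0.41 minus the list median. The other shared region, at 232151 to 232250, covers most of the gene of the small nucleolar RNA kis-a, which lies inside the kis span at 232166 to 232253. There, CLIP reads were 33, 99.5 and 18.5 per bin and input reads 104, 66.4 and 84.9, so input was higher in replicates 1 and 3. Reads of this region cannot be given to kis mRNA alone.

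Further bins of kis were called in replicates 1 and 2 but not 3. The bin at 248651 to 248700, 2.15 kb from the 5′ end, had 24 and 39 CLIP reads against 3 and 5. The bin at 213251 to 213300, near the 3′ end, had 22 and 54 reads against 7 and 2. Replicate 3 had a separate peak at 242501 to 242550 with 10 reads, inside the longer peak of replicate 1. The 6 remaining peaks of kis were in replicate 1 only, with 7 to 10.5 CLIP reads per bin.

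The acetyltransferase gene nej encodes the fly CBP, a coactivator that acetylates histones at enhancers. On X from 9665442 to 9687066, its peaks numbered 4, 3 and 3 and kept to the first part of the span, between 6.89% and 20.4% of its length. The stretch from 9682601 to 9682900 was 1 peak in replicate 1 and held 2 peaks in each of the others. The parts of it called in all lists were 9682601 to 9682700 and 9682751 to 9682800. Replicate 1 had 34 CLIP reads per bin there against 3.69 input reads. Replicate 2 had 71.8 and 41 reads against 5.09 and 7, and replicate 3 had 16 and 9 against 3.46 and 5. At a further shared position, 9683701 to 9683750, the covering peaks had 25, 60 and 11 CLIP reads and 3.87, 4.24 and 2.45 input reads per bin. Their log2 ratio was 2.58 ± 0.88 (SD, n = 3), or 2.14 ± 0.16 minus the list median. All 10 peaks of nej had more CLIP than input reads. The shared regions of nej lay 3.34 to 4.42 kb from the 5′ end.

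**Figure D2:**
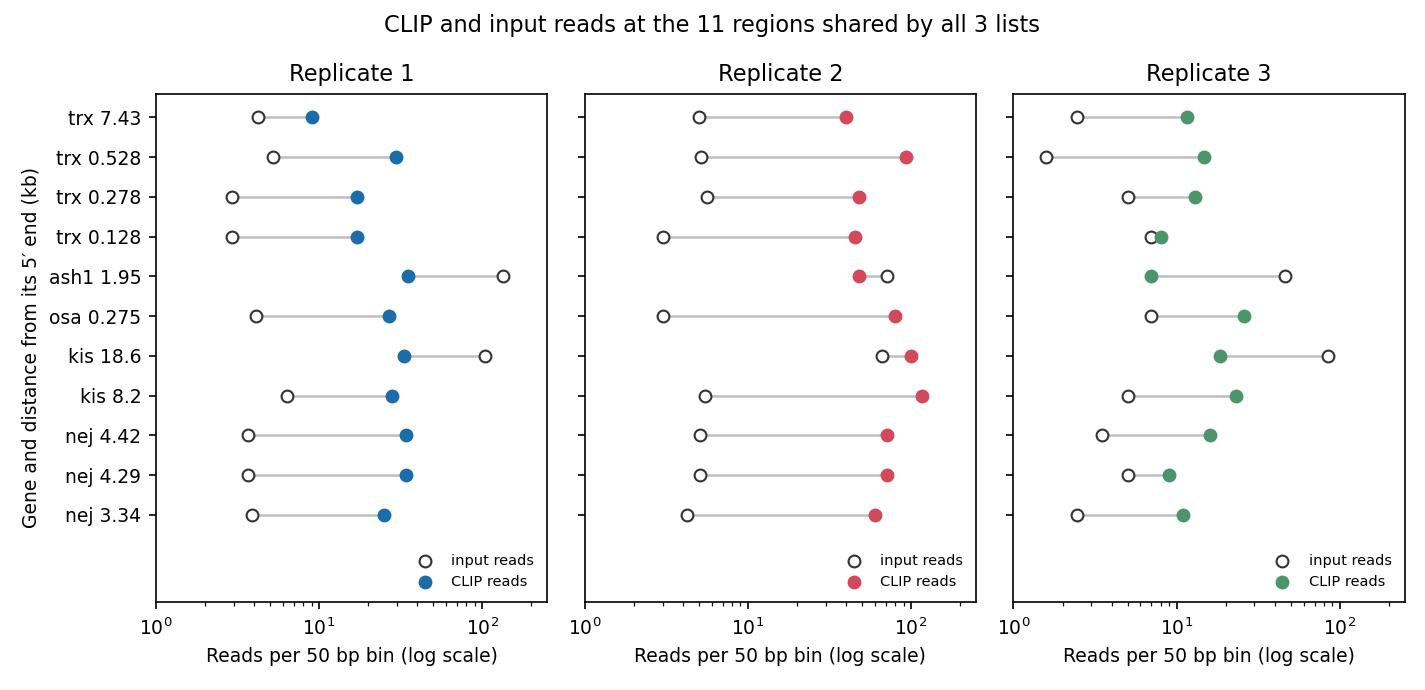
CLIP reads (filled) and input reads (open) per 50 bp bin, on a log scale, at the 11 regions of chromatin regulator genes called in all 3 lists, each named by gene and distance of its midpoint from the 5′ end in kb. At 9 regions CLIP reads exceed input reads in every replicate. At the ash1 bin input is higher in all 3, and at the kis region on the small nucleolar RNA, 18.6 kb from the 5′ end, it is higher in replicates 1 and 3. Values are those of the whole peak that covers a region in each list, so regions within the same peak share its value.

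Nipped-B loads the cohesin ring onto chromosomes. Its span on 2R from 4691672 to 4729017 is the second longest of the 10 but held 4 peaks only, at 4 different places. Replicate 1 had 3 peaks with 7, 7 and 10 CLIP reads against 8, 8 and 9 input reads, and replicate 2 had 1 peak with 32 reads against 20. None of them overlapped a peak of another list, and the ratio of each was below the median of its list.

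The Polycomb genes had few peaks. Pc encodes the chromodomain subunit of Polycomb repressive complex 1, which reads the silencing mark on histone H3. On 3L from 21306138 to 21318020 it had a single peak, in replicate 3 only, with 7 CLIP reads, the lowest height of that list, and 1 input read. Its 5′ end here rests on that peak alone. Su(z)12 is a core subunit of complex 2, which writes the mark. On 3L from 19918242 to 19923462 it had 2 peaks in replicate 1 only, 0.237 and 0.337 kb from the 5′ end. They had 10 and 8 CLIP reads against 3 and 2 input reads. E(z), the methyltransferase of complex 2, had no peak in its span on 3L from 10634575 to 10638130.

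The CLIP to input ratio was then set against each whole list. Peaks of the 10 genes had a median log2 ratio of 0.93, 3.21 and 1.75, against 0.17, 1.58 and −0.42 over all peaks. The difference was 0.76, 1.63 and 2.17, a mean of 1.52 ± 0.71 (SD, n = 3). By replicate, 19 of 27, 11 of 14 and 11 of 13 peaks were above the median of their list. CLIP reads were below input reads in 6, 1 and 2 of these peaks, at ash1, kis and Nipped-B, against 43.6%, 16.6% and 55.4% of all peaks. Peaks enter a list through their CLIP reads, so these ratios were not tested. The median input of peaks in these genes was 5, 5.14 and 5 reads per bin, against 8, 13 and 14 over all peaks. The part of low input in the higher ratios was not tested.

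**Figure D3:**
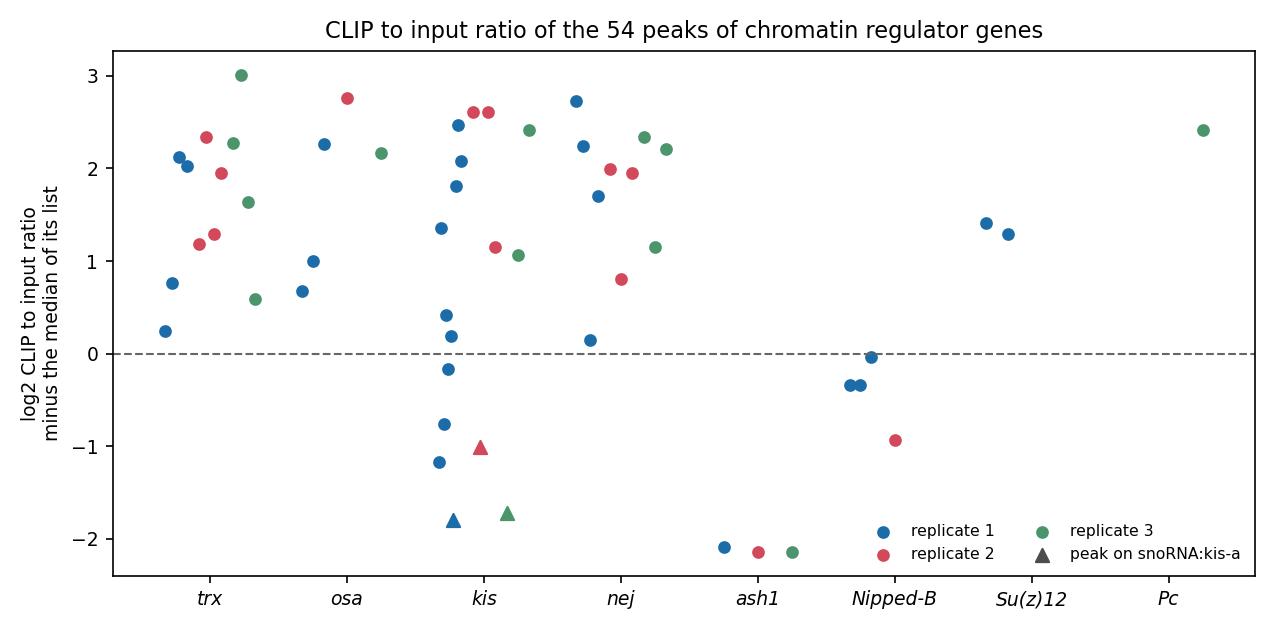
The log2 CLIP to input ratio of each of the 54 peaks minus the median of its list, by gene, coloured by replicate. The dashed line is the median of the list, and triangles are the peaks on the small nucleolar RNA kis-a. All peaks of trx, osa, nej, Su(z)12 and Pc lie above the line, those of ash1 and Nipped-B below it, and those of kis on both sides.

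The 11 shared regions fell on both sides of the list medians. In 9 of them, all in trx, osa, kis and nej, the ratio was above the list median in each replicate, by means from 1.41 to 2.49. The other 2, the ash1 bin and the kis-a region, were below it in each replicate, by −2.12 ± 0.03 and −1.51 ± 0.44 (SD, n = 3). Over all 4197 regions called in the 3 lists, 44.6% were above the list medians in each replicate and 42.4% were below. Of protein-coding genes, 12.3% had a shared region, against the 5 of 10 genes here, and 8.03% had one above the list medians in each replicate, against 4 of 10. These shares are over genes of all lengths. Long spans are called more often and most of the 10 genes are long, and shares of shared regions by span were not taken. The 4 regions of trx and the 3 of nej lie in part in the same peaks and are not separate measurements.

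The position of peaks along the span was compared last. In the 10 genes, 13 of 27, 7 of 14 and 7 of 13 peaks lay in the first 20% of the span, a mean of 50.7% ± 2.9 (SD, n = 3). In all protein-coding genes with spans of 20 to 50 kb, with strand set in the same way, the mean was 44.6% ± 6.0. List by list, the shares were 48.1% against 37.7%, 50.0% against 48.3% and 53.8% against 47.8%, higher in the 10 genes each time, and the difference was not tested. Over the 3 lists together, the first 10% of the span held 37.0% of the peaks of the 10 genes, against 37.6%. The 7 peaks between 10% and 20% were all of nej. Peaks of the same nej stretch lay on both sides of the 20% cutoff, at 19.4% to 19.96% and at 20.2% and 20.4%. In the first 5% of the span were 27.2% ± 4.4 of the peaks, against 33.8% ± 4.2. The 27 peaks in the first 20% came from 7 genes, and 26 of them had a ratio above the median of their list.

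In the last 20% of the span lay 9, 1 and 0 peaks, a mean of 13.5% ± 17.6 (SD, n = 3), against 24.9% ± 7.1 in genes of 20 to 50 kb. In replicate 1 the share was 33.3% against 33.1%, in replicate 2 it was 7.14% against 20.8%, and in replicate 3 none against 20.9%. With the genes of 20 kb or more alone, the mean was 15.1% ± 19.8. Over all 10 genes, leaving out replicate 1 lowered the mean from 13.5% to 3.57%. All 10 peaks in the last 20% were 1 bin wide, 9 were from replicate 1, and the only position seen in 2 lists was the kis bin at 213251 to 213300. Of the 10 peaks, 5 had a ratio above the median of their list. Exon positions were not used here, so whether a peak lies in an untranslated region, coding sequence or intron is not given.

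**Figure D4:**
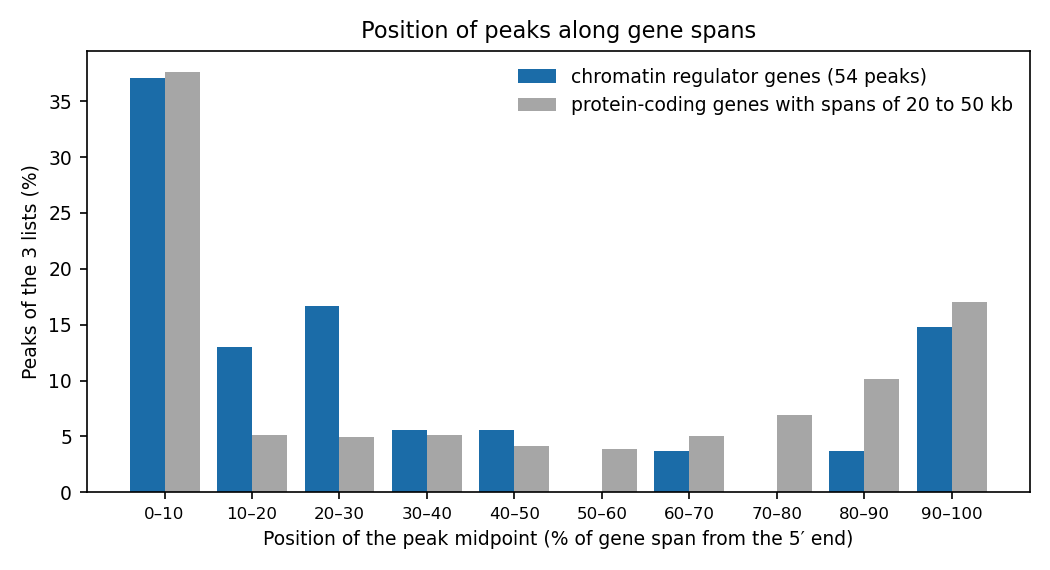
Share of peaks, over the 3 lists together, in steps of 10% of the gene span from the 5′ end, for the 54 peaks of chromatin regulator genes and for peaks in protein-coding genes with spans of 20 to 50 kb. The first step holds 37.0% and 37.6% of the peaks. From 10% to 30% of the span the bars of the chromatin regulator genes, which there are peaks of nej, kis and ash1, are higher.

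For context, 75 other chromatin genes were grouped by complex, and 72 of them have sequence that lies in no other protein-coding span. Of these, 10 (13.9%) had a peak in all 3 lists in their span alone, against 13.5% of all protein-coding genes. By span, these were 6 of 9 genes of 20 kb or more, 4 of 32 genes of 5 to 20 kb and none of 31 shorter genes. The shares of all protein-coding genes in these classes were 59.8%, 24.5% and 5.55%. Over all spans the share was near the background, while the 2 shorter classes were below it. These differences were not tested.

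In several groups no gene was called in every list. Of the 8 further Brahma subunits, 7 had no peak and 1 had a peak in a single list. The 8 cohesin genes, the 9 genes of the COMPASS methyltransferases and the 6 other genes of Polycomb complex 1 had none with a peak in all lists, nor did the 5 genes of the PhoRC and PR-DUB complexes or the 5 of heterochromatin with sequence of their own. Many of these genes are short, but each of these groups also holds genes of 5 to 20 kb, a class called at 24.5% among all protein-coding genes. The cohesin group holds a longer gene as well. The counts of 0 were not set against a background matched for span, and were not tested. In Polycomb complex 1, ph-p and Su(z)2, named after their values were seen, each had 2, 2 and 0 peaks.

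Genes called in every list were 2 of the 5 further genes of Polycomb complex 2 that could be tested, 3 of 6 other trithorax group genes, 2 of 7 other remodellers, 2 of 8 acetylation genes and 1 of 5 demethylases. In the first group, which holds core subunits and cofactors, jing, whose human relative is AEBP2, had 5, 4 and 3 peaks with a median position at 0.601% of the span, and Jarid2 had 1 peak in each list at 1.45%. Of other trithorax group genes, psq, which encodes a DNA-binding BTB protein, had 10, 4 and 3 peaks. The Mediator kinase module gene skd had 5, 2 and 3, with a median ratio 1.90 above that of the list. Among remodellers, dom had 5, 3 and 3 peaks and E(bx), the large subunit of NURF, had 3, 2 and 2. The ratio of dom peaks was −1.08 relative to the list median, below it as at ash1, while that of E(bx) was 0.25 above it. Of genes that act on acetylation, the corepressor Sin3A had 2, 2 and 1 peaks and HDAC4 had 1, 2 and 1. The demethylase gene Kdm4B had 3, 2 and 1, with a median position at 1.14% of the span.

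**Figure D5:**
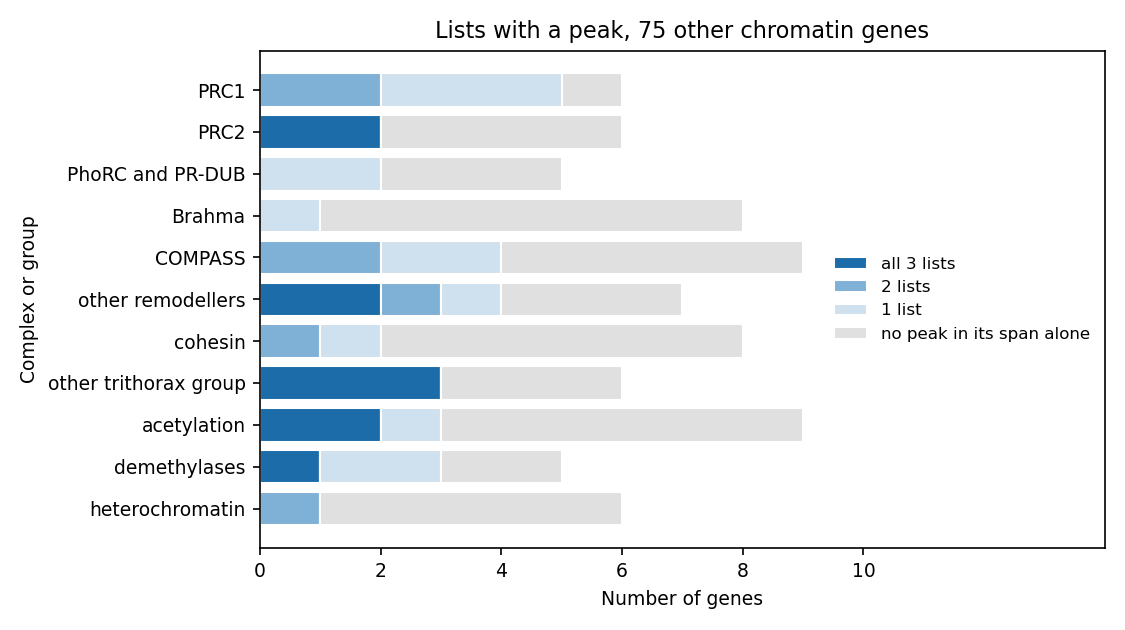
Number of genes of each complex or group with a peak in all 3 lists, in 2, in 1 or in none, for 75 other chromatin genes, counting peaks in the span of that gene alone. Dark bars, for genes in all 3 lists, appear for Polycomb complex 2, other remodellers, other trithorax group genes, acetylation genes and demethylases, 10 genes together.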

How the data were processed

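Peaks of 3 m6A-CLIP and 3 input libraries were used as deposited, in 3 lists without headers, 1 per replicate and not pooled, per the labels. STAR 2.7.5a and the builds dm6 and BDGP6 are named in the submitters' processing notes. The peak caller and its thresholds are not given in the sources used here. The deposited signal is the mean CLIP reads per bin of 50 bp. Another deposited column is the natural log of input reads per bin, averaged over bins, so its exponential is a geometric mean in wider peaks, whose ratio leans upward. Whether 1 was added before the log is not known. Both meanings were inferred from the values, labels and list names. The authors' deposited p-value only ranked peaks.

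Coordinates are 1-based. Gene spans came from RefSeq Release 6 plus ISO1 MT, which is dm6. All 10 genes, the 75 further genes and 25 markers were matched by symbol or synonym. A shared region is covered, by 1 bp or more and on the same strand, in every list. The scripts, in Python 3.11.15 with pandas 2.3.3, were tested on simulated data. Members and lists were chosen with earlier results of these data known. All 10 genes are named. Of the further genes, up to 2 per group are named, those called in every list with the most peaks, and ph-p and Su(z)2 were named after their values were seen. Alternatives covered peak thresholds, the read minimum, assignment, strand, overlap, windows, pseudocounts and leaving out each replicate. Results on the first 20% of the span were added after seeing the data.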

Additional observations from a re-analysis of the deposited data

How the results depend on the processing

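Of 59 alternatives, 53 left a count within 1.5 times or a value within 1 SD of that reported, and none turned a direction. Some of the 53 could not move. All peaks of each gene lay on 1 strand and none lay in a second protein-coding span, so alternatives on these points left the 10 genes unchanged. For the last 20% of the span, the SD of 17.6 exceeded the mean of 13.5%, so that rule was loose there. It was also loose for the median log2 ratio of 1.97, whose SD of 1.15 holds the differences between the list medians. With 1-bin peaks only, that ratio was 1.31, which counts as within 1 SD. The 5 genes with a peak in all lists fell to 1 with a minimum of 25 CLIP reads per bin in every list. The 11 shared regions became 5 when peaks had to share 50% of their length, and 4 when only the 50% of peaks with the best p-values in each list were taken. That threshold also left 4 of the wider list's 10 genes. The share of peaks in the first 20% of the span, 50.7%, was 37.1% for the first 10% and 70.5% for the first 30%, by construction. All these alternatives use fewer peaks or other windows. Leaving out each replicate gave 5 to 6 genes, 11 to 13 regions, 12 to 13 genes of the wider list, and a median log2 ratio of 1.34 to 2.48 around 1.97. With a replicate left out, a gene needed a peak in the remaining lists only, so the counts of genes could not fall.

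The ratio was taken within each list, which keeps the replicate block, and was not tested. Over the 11 regions its mean was 1.77 ± 1.07 (SD, n = 3), and with no replicate block, using the input averaged over lists, 1.77 ± 1.13, the mean being fixed by construction. Few reads limit single peaks: 8 of the 54 were at the lowest height of their list.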

Other observations

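The kis-a region had values like those of other small nucleolar RNA genes. Peaks on such genes numbered 134, 124 and 126 in replicates 1, 2 and 3, and 95.5%, 91.1% and 95.2% of them had a CLIP to input ratio below the median of their list. Their median difference from the list was −1.70, −1.24 and −1.46 on the log2 scale, against −1.80, −1.01 and −1.72 at kis-a.

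Among the 1904 protein-coding genes with a peak in all 3 lists, the median number of peaks over the lists was 9. With 17, 12 and 10 peaks, kis, trx and nej were above this median, nej only at percentile 56.4, while osa with 5 and ash1 with 3 were below it. The 1904 genes have spans of all lengths, while kis, trx and nej each span more than 20 kb. The 17 peaks of kis include the 3 on kis-a.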
